A study of Homo sapiens with 6 samples.

Results

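The rows examined here are those of the nuclear-encoded subunits and assembly factors of the mitochondrial respiratory chain and ATP synthase in the deposited count table. They were chosen by symbol (NDUFA, NDUFB, NDUFC, NDUFS, NDUFV, NDUFAF, SDHA to SDHD with their assembly factors, UQCR, COX4 to COX8 and ATP5), without pseudogene suffixes, and had to hold a summed raw count of 30 or more over all libraries. This left 79 of 105 matching rows. The rows of HIF1AN, GABPA and CFAP126 were added by name because they lie on the other strand over exons of NDUFB8, ATP5PF and SDHC. This gave 82 of the 59087 rows of the table. Just inside the limit was ATP5MPL with 36 reads, and just outside it was SDHD with 28 reads. Another 164 matching symbols with a pseudogene suffix were left out.

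The libraries came from HEK293T, a human embryonic kidney line that carries the SV40 large T antigen. The first knockout line of THUMPD2 (KO1), the second knockout line (KO2) and the wild type line (WT) had 2 libraries each. THUMPD2 is an RNA methyltransferase, and the stated aim was to find genes and splicing events that change on its loss, with a second line as a check. Whether each line is a clone and whether the libraries of a group are separate cultures is not given in the sources used here. The p-values therefore set differences between groups only against the spread of libraries within groups, and this spread may be technical. With a single WT line, loss of THUMPD2 and other differences between lines cannot be told apart. In RNA from a whole culture, a lower count in every cell and fewer cells that carry the transcript cannot be told apart either.

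Respiratory chain complexes I to IV sit in the inner mitochondrial membrane. Complexes I (NADH dehydrogenase) and II (succinate dehydrogenase) pass electrons to ubiquinone, complex III passes them on to cytochrome c, and complex IV (cytochrome c oxidase) hands them to oxygen. Complexes I, III and IV pump protons, and complex V, the ATP synthase, uses the gradient to make ATP. Most subunits are encoded in the nucleus, and their promoters are known for binding the transcription factors NRF1, GABP (an ETS factor whose DNA-binding subunit is GABPA) and YY1.

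Promoter windows of these genes were taken from RefSeq (GRCh38.p14, from upstream of the annotated start to shortly after it), which held 64 of the 78 genes looked up. A gene was counted if any of its windows held the letters. The ETS letters CCGGAAG stood on either strand in windows of 19 of the 64 genes (29.7%), against 12.2% of all 27305 genes. The 19 include HIF1AN and GABPA, which were added by name. YY1 letters, AAGATGGCG, stood in windows of 6 genes (9.38%, against 2.14% of all), and the core of the NRF1 motif in those of 3 genes (4.69%, against 1.52%). ETS and YY1 letters do not overlap each other in the windows printed here. Such a match describes letters only. The windows below belong to ATP5PF, whose start region is also exonic in GABPA on the other strand, to HIF1AN, and to NDUFS7, whose row was lower in both lines; capitals mark matches to the ETS or YY1 letters.
ATP5PF (chr21:25734855-25735154, minus strand): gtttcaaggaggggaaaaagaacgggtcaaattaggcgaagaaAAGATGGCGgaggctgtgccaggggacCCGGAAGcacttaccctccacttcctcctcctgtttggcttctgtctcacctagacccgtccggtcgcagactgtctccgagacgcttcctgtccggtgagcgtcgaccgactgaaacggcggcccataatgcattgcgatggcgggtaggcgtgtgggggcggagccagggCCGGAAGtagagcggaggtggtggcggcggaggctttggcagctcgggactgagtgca
HIF1AN (chr10:100535693-100535992, plus strand): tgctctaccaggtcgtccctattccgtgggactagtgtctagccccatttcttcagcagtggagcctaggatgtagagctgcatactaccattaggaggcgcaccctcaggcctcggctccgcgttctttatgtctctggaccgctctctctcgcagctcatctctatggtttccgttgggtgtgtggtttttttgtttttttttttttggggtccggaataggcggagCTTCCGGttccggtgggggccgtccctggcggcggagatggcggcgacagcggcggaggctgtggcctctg
NDUFS7 (chr19:1383657-1383956, plus strand): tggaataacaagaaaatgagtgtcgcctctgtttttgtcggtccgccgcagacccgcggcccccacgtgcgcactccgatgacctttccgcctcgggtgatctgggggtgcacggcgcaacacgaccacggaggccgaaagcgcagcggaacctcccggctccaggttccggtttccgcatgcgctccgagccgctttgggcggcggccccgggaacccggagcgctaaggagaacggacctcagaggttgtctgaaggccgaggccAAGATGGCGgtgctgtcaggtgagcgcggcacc
The ATP5PF window holds ETS letters at 2 places and YY1 letters at 1. The GABPA window (chr21:25734722-25735021, plus strand) overlaps it and shares one of those ETS matches.

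The second pair of sequences concerns UQCRHL, the row with the largest fold change among the 77 rows tested. UQCRH encodes the hinge protein of complex III, and UQCRHL is its near copy with 1 exon where UQCRH has 4. The coding sequences, both 276 bases with the stop codon, were read from the GENCODE v29 transcripts; capitals mark the positions at which they differ.
UQCRHL (chr1:15807374-15807649, minus strand): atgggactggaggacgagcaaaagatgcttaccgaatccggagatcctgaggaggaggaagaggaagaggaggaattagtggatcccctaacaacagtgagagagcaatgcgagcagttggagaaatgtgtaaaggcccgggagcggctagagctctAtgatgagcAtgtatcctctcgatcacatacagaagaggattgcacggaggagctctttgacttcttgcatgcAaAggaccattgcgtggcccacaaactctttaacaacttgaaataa
UQCRH (chr1:46303767-46316584, plus strand, exons joined): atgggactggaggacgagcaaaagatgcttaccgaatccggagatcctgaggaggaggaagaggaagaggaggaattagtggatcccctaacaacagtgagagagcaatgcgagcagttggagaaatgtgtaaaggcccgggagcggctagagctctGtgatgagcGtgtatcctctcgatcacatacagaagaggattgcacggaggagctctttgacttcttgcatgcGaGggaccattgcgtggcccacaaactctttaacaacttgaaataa
Counted from 1 at the first base of the start codon, UQCRH to UQCRHL reads G158A, G167A, G231A and G233A, which leaves 98.6% identity. Reads from a coding sequence this alike can be placed at either locus, so the counts of both rows are uncertain in that respect.

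Library totals ran from 7414339 to 8391143 reads counted to rows. The 79 rows chosen by symbol took 0.233% and 0.240% of the reads in KO1, 0.213% and 0.211% in KO2, and 0.224% and 0.221% in WT. The 3 added rows took 0.184% and 0.191% in KO1, 0.194% and 0.199% in KO2, and 0.239% and 0.234% in WT. The groups did not overlap for either share, and KO1 and WT stood on opposite sides of KO2 in the second. THUMPD2 itself had 3 and 0 reads in KO1, 0 and 1 in KO2, and 1 and 2 in WT, too few to check the labels. All 7 marker genes of the HEK293T list had reads in their own rows, which summed to 2971 and 3198 in KO1, 5794 and 6131 in KO2, and 3898 and 4159 in WT. Of 7 markers of other cells, 6 had reads, with sums of 137 and 129 in KO1, 284 and 239 in KO2, and 247 and 317 in WT, and ALB was at 0. The part of these marker differences in the results was not tested.

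Most respiratory chain rows held few reads. The library kit keeps strand, and the strand setting of the counting is not given in the sources used here. Of the 100 symbols without a hyphen, 28 have a gene on the other strand that shares at least 100 exonic bases, and their rows had a median of 34.8 reads per library. The other 72 had a median of 12.8. NDUFB8, an accessory subunit of complex I, had 2 reads over all libraries in its own row. HIF1AN, on the other strand over 325 of its exonic bases, had 57614. ATP5PO, the OSCP subunit of ATP synthase, had 3 reads, and ATP5MG, its g subunit, had 5, where LINC00649 and AP001267.1, partly over their exons, had 50843 and 59859. Those rows lie mostly over other genes, since ATP5PO makes up 37.8% of the other-strand exon overlap of LINC00649 and ATP5MG 11.1% of that of AP001267.1. UQCRQ, a small complex III subunit, had 80 reads, and GDF9 over its exons had 25982. These are raw reads and not levels per length, and the rows on the other strand also hold exons outside the shared bases.

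The relation ran the other way at some genes. ATP5PB had 19684 reads, and WDR77 on the other strand had 210. NDUFB11 had 13096 reads, and RBM10 had 616. Of 22 genes with a row on the other strand assigned to them (at least 100 shared exonic bases, making up at least 80% of that row's overlap with other-strand exons), 14 had more reads in that row than in their own. The 14 include COX6A2, with 0 reads against 1, and NDUFV2-AS1, itself an antisense row, with 235 reads against 441 for ANKRD12. Each value below is therefore that of a row as named in the table. Whether its reads came from the named gene or from the gene on the other strand was not tested, and a change in a row is not given as a change in the gene.

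**Figure D1:**
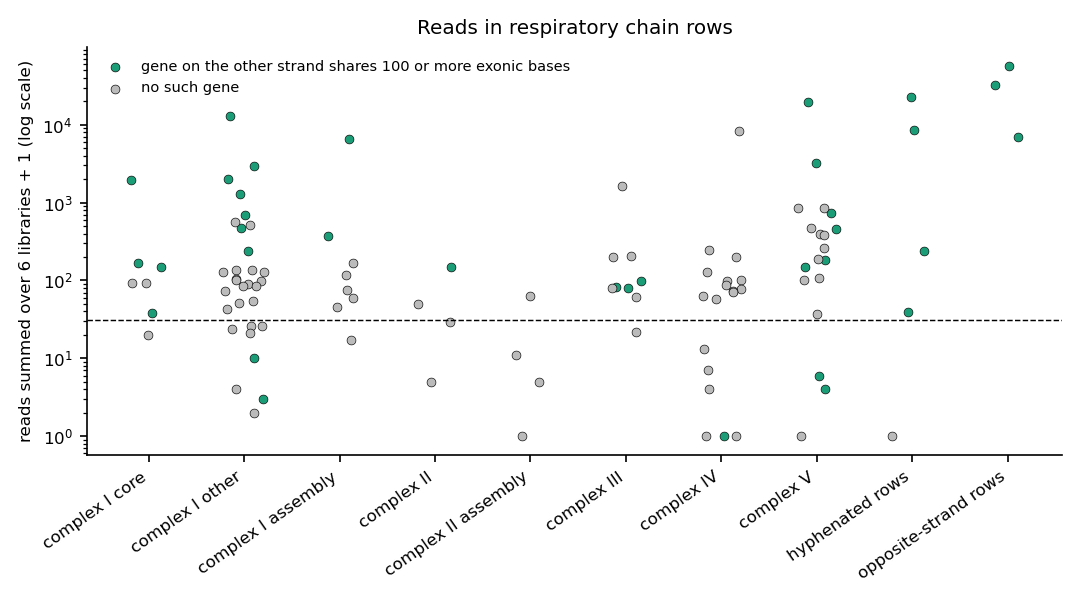
Reads summed over the 6 libraries plus 1 (log scale) for each matching row, by complex, with the limit of 30 reads as a dashed line. Rows whose gene shares 100 or more exonic bases with a gene on the other strand are green, and the highest symbol row is NDUFB2-AS1 with 22598 reads.

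**Figure D2:**
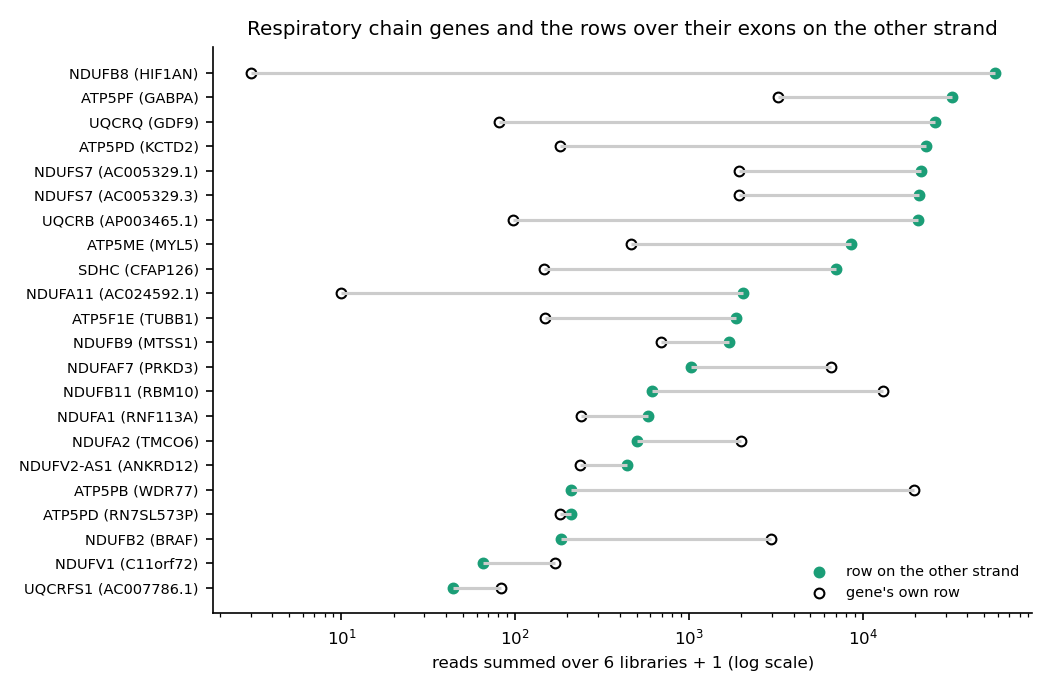
Reads summed over the 6 libraries plus 1 (log scale) in each gene's own row (open points) and in the assigned row over its exons on the other strand (filled points), named in brackets, for pairs whose other-strand row has 30 or more reads. NDUFB8 and HIF1AN are farthest apart, and ATP5PB and NDUFB11 hold more reads in their own rows.

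Of the 82 rows, 77 passed the filter on low counts and were tested. NDUFS1, NDUFB4, SDHB, NDUFA4 and ATP5MPL did not, with 36 to 57 reads each in all. In KO1 against WT, 13 of the 77 were called at an adjusted p under 0.05 (16.9%), where 23.6% of all 14184 rows tested were called. Of these, 8 were higher and 5 lower in KO1, against 10.4% of all rows higher and 13.3% lower. In KO2 against WT, 14 were called (18.2%, against 29% of all rows), 5 higher and 9 lower in KO2 (13.6% and 15.4% of all rows). In both lines with the same sign, 9 were called (11.7%, against 13.5% of all rows), 4 higher and 5 lower (5.79% and 7.72% of all rows). KO1 and KO2 differed in 10 rows (13%, against 20.4% of all rows), 7 higher and 3 lower in KO1 (10.1% and 10.3% of all rows). For either direction together, the share of respiratory chain rows lay below that of all rows in each comparison. These counts include HIF1AN, GABPA and CFAP126, which were added by name and called in both lines. Without them, 74 rows were tested, and 10 were called in KO1 (13.5%) and 11 in KO2 (14.9%). In both lines 6 of the 74 were called (8.11%), and KO1 and KO2 differed in 9 (12.2%).

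The median log2 fold change over the tested members was 0.05 in KO1 and 0.10 in KO2, and 0.01 and 0.02 over all rows. Calls followed depth. The 19 members with a mean of 100 or more reads include the 3 rows added by name, which were called in both lines. The shares at this depth therefore rest in part on rows added by name. Of the 19, 9 were called in KO1, 4 higher and 5 lower (47.4%, against 44.2% of the 4699 rows of all genes at that depth). In KO2, 12 of the 19 were called, 3 higher and 9 lower (63.2%, against 53.3%). Of all rows at that depth, 18.9% were called higher and 25.4% lower in KO1, and 20.4% higher and 32.9% lower in KO2. Of the 58 tested members with fewer reads, 4 were called in KO1 (6.9%, against 13.4% of all such rows) and 2 in KO2 (3.45%, against 17%), all of them higher. Of all such rows, 6.15% were called higher and 7.25% lower in KO1, and 10.3% higher and 6.72% lower in KO2. Whether changes of the sizes seen in the deeper rows could be detected in the rows with fewer reads was not tested. A missing call there does not show that a row was unchanged. Both contrasts use the same WT libraries.

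The 3 rows added from the other strand were called in both lines. HIF1AN (chromosome 10, 100529072 to 100559998, plus strand of GRCh38), the asparagine hydroxylase that restrains hypoxia-inducible factor, had 8157 and 8245 reads in KO1, 8594 and 9445 in KO2, and 11353 and 11820 in WT. Every knockout library lay below both WT libraries. The row fell in KO1 by 0.42 ± 0.05 on the log2 scale (SE; edgeR adjusted p = 1.29e-07) and in KO2 by 0.50 ± 0.05 (edgeR adjusted p = 2.52e-09), and the lines did not pass the test against each other (edgeR adjusted p = 0.347). The 39 well counted rows of the same 10 Mb bin had a median log2 fold change of -0.50 in KO1 and -0.49 in KO2. With that bin median taken out, the HIF1AN row was at 0.09 in KO1 and -0.0034 in KO2, and neither was called (adjusted p = 0.286 and 0.982).

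NDUFB8 itself, the subunit under HIF1AN, had no read in any KO1 or KO2 library and 1 in each WT library. The shared stretch is chr10:100529072-100529396, which is 325 of the 13950 exonic bases of HIF1AN. Counts per row do not say where within HIF1AN the reads lie.

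GABPA (chromosome 21, 25734570 to 25772460, plus strand) had 4543 and 4871 reads in KO1, 5367 and 5697 in KO2, and 5958 and 6110 in WT. In CPM, the usual depth-scaled count, with TMM factors, it averaged 648 ± 58.9 in KO1, 655 ± 3.69 in KO2 and 785 ± 26.4 in WT (SD, n = 2 each). Both lines lay below WT without overlap, by 0.28 ± 0.06 (edgeR adjusted p = 0.000674) in KO1 and 0.26 ± 0.06 (edgeR adjusted p = 0.000994) in KO2 on the log2 scale. The calls were kept in all 12 alternative analyses that gave a value. Its bin held 5 well counted rows, under the 15 needed for a median, so a regional shift was not assessed there.

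ATP5PF, coupling factor 6 of the ATP synthase stalk, lies under the start of GABPA and shares 413 exonic bases with it in 2 segments. Its own row had 500 and 470 reads in KO1, 554 and 614 in KO2, and 557 and 566 in WT. Its log2 fold changes were -0.13 ± 0.09 in KO1 and -0.08 ± 0.09 in KO2, and neither passed the test (edgeR adjusted p = 0.317 and 0.553). The difference between the changes of the GABPA and ATP5PF rows was not tested.

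CFAP126 (chromosome 1, 161364731 to 161367874, minus strand), a protein of motile cilia, lies with all its 774 exonic bases over exons of SDHC, a membrane anchor of complex II. The CFAP126 row had 1137 and 1064 reads in KO1, 1398 and 1556 in KO2, and 881 and 956 in WT, and every knockout library was above WT. It rose by 0.34 ± 0.07 in KO1 (edgeR adjusted p = 0.000449) and by 0.55 ± 0.07 in KO2 (edgeR adjusted p = 1.16e-07) on the log2 scale. KO1 was below KO2 (log2 difference -0.21 ± 0.07, edgeR adjusted p = 0.031), a call lost in 9 of 13 alternatives, among them those without KO1 library 2 (-0.21), KO2 library 1 (-0.26), KO2 library 2 (-0.18) and WT library 1 (-0.21). The bin median was 0.38 in KO1 and 0.49 in KO2 over 24 rows, and without it the CFAP126 values were -0.04 and 0.06, neither of them called. The SDHC row had 26 and 23 reads in KO1, 24 and 16 in KO2, and 18 and 39 in WT, and was not called.

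**Figure D3:**
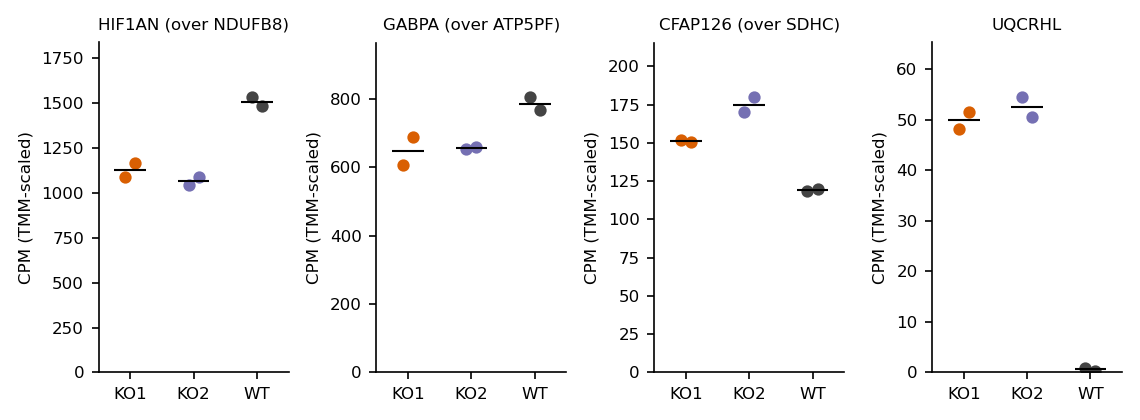
TMM-scaled CPM in each library (points) with the group mean (line) for KO1, KO2 and WT, each axis starting at 0. HIF1AN and GABPA lie lower in every knockout library than in WT, CFAP126 lies higher, and UQCRHL is near 0 in WT.

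In complex I, the core subunits carry the redox centres. NDUFS7, the core subunit with the last iron-sulfur cluster before ubiquinone, had 252 and 233 reads in KO1, 331 and 319 in KO2, and 365 and 448 in WT. All knockout libraries lay below WT. The row fell by 0.66 ± 0.11 in KO1 (edgeR adjusted p = 2.5e-05) and by 0.45 ± 0.11 in KO2 (edgeR adjusted p = 0.00163) on the log2 scale. Without WT library 2 the KO2 value was -0.35 and no longer called. Its bin medians were near 0 (-0.07 in KO1 and -0.0022 in KO2). The rows AC005329.1 and AC005329.3, over 2693 and 1007 of its exonic bases on the other strand, held 21595 and 21115 reads, against 1948 for NDUFS7. AC005329.1 was not called in either line, and AC005329.3 fell by 0.23 ± 0.06 in KO2 (edgeR adjusted p = 0.00562).

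Of the other core rows, NDUFV1, NDUFS3 and NDUFS8 were not called in either line.

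Among the other complex I subunits, 22 of 23 rows were tested, and 1 rose in KO1 and 1 fell in KO2. This was 4.55% in each line, against 23.6% of all rows in KO1 and 29% in KO2. The most abundant was NDUFB11, a membrane-arm subunit, with 2231 and 2236 reads in KO1, 2088 and 2272 in KO2, and 2043 and 2226 in WT. It was not called against WT. It was higher in KO1 than in KO2 by 0.25 ± 0.07 (edgeR adjusted p = 0.00429), a call lost without KO2 library 1 (0.22). The second most abundant, NDUFB2, had 494 and 475 reads in KO1, 482 and 528 in KO2, and 457 and 518 in WT, and was not called.

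NDUFA3, a small accessory subunit, had 213 and 244 reads in KO1, 188 and 160 in KO2, and 249 and 232 in WT. KO2 lay below both other groups, by 0.60 ± 0.15 against WT (edgeR adjusted p = 0.00159), and KO1 was above KO2 by 0.61 ± 0.15 (edgeR adjusted p = 0.0022). Without KO2 library 2 these values were -0.45 and 0.45 and not called, and without KO1 library 2 the difference of the lines was 0.46 and not called. NDUFB10 had 95 and 121 reads in KO1, 73 and 100 in KO2, and 57 and 71 in WT. It rose in KO1 by 0.84 ± 0.22 (edgeR adjusted p = 0.00423), not called without KO1 library 2 (0.61). NDUFA1, needed for assembly of the membrane arm, had 29 and 20 reads in KO1, 68 and 43 in KO2, and 49 and 29 in WT. KO1 was below KO2 by a log2 difference of -0.97 ± 0.34 (edgeR adjusted p = 0.0365), a call lost with DESeq2, without KO1 library 2 (-0.77) and without KO2 library 1 (-0.57). RNF113A, over 341 of its exonic bases on the other strand, held 581 reads, against 238 for NDUFA1. The RNF113A row was also lower in KO1 than in KO2 (log2 difference -0.78 ± 0.20, edgeR adjusted p = 0.00409).

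Among the complex I assembly factors, 7 rows were tested. Against WT, 1 was called in KO1 (14.3%, against 23.6% of all rows) and 0 in KO2 (29% of all rows). NDUFAF7, an arginine methyltransferase needed for complex I assembly, had 1252 and 1167 reads in KO1, 1093 and 1097 in KO2, and 969 and 1032 in WT. It rose in KO1 by 0.35 ± 0.07 (edgeR adjusted p = 0.000248), and its log2 fold change in KO2 was -0.00375 ± 0.07 (edgeR adjusted p = 0.979). KO1 was above KO2 by 0.36 ± 0.07 (edgeR adjusted p = 0.000239), and both KO1 calls were kept in all 13 alternatives. The NDUFAF3 row, of 375 reads, was not called. DALRD3, over its exons and those of other genes, rose by 0.27 ± 0.05 in KO1 (edgeR adjusted p = 0.000176) and 0.37 ± 0.05 in KO2 (edgeR adjusted p = 5.63e-07).

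Complex II and its assembly factors gave 2 tested rows, SDHC above and SDHAF1, which helps to insert iron-sulfur clusters into the complex. SDHAF1 had 16 and 12 reads in KO1, 10 and 7 in KO2, and 10 and 7 in WT, and was not called. SDHB, the iron-sulfur subunit, had 8 and 5 reads in KO1, 12 and 10 in KO2, and 4 and 10 in WT, and did not pass the filter.

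In complex III, 8 rows were tested and 1 was called (12.5% in each line, against 23.6% of all rows in KO1 and 29% in KO2). The called row was UQCRHL (chromosome 1, 15807169 to 15809348, minus strand). It had 361 and 365 reads in KO1, 448 and 439 in KO2, and 6 and 3 in WT. It averaged 49.9 ± 2.47 CPM in KO1, 52.6 ± 2.67 CPM in KO2 and 0.593 ± 0.306 CPM in WT (SD, n = 2 each). The row was 83.1-fold higher in KO1 and 87.5-fold higher in KO2 than in WT, or 6.38 ± 0.24 (edgeR adjusted p = 1.34e-21) and 6.45 ± 0.24 (edgeR adjusted p = 6.84e-22) on the log2 scale. KO1 and KO2 did not differ by the test (log2 difference -0.07 ± 0.12, edgeR adjusted p = 0.725). The calls were kept in all 13 alternatives, with log2 fold changes of 5.92 to 6.99 in KO1 and 5.99 to 7.06 in KO2. No annotated gene lies over its exon on the other strand.

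The UQCRH row, of the gene printed beside UQCRHL, had 22 and 35 reads in KO1, 38 and 44 in KO2, and 24 and 35 in WT, with overlapping groups and no call. UQCRC1, a core protein of complex III, had 51 and 30 reads in KO1, 40 and 25 in KO2, and 33 and 24 in WT, and was not called. The 37 well counted rows of the bin of UQCRHL had medians of -0.49 in KO1 and -0.42 in KO2, so the row ran against its surroundings.

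No other tested row within 100000 bases of UQCRHL was called higher in both lines. RPL12P14, a processed pseudogene 13884 bases away on the plus strand, had 42 and 37 reads in KO1, 267 and 295 in KO2, and 65 and 81 in WT. It fell in KO1 by 0.80 ± 0.23 (edgeR adjusted p = 0.00708) and rose in KO2 by 1.81 ± 0.18 (edgeR adjusted p = 2.25e-10) on the log2 scale. FBLIM1, 20575 bases away, had 2 and 2 reads in KO1, 26 and 21 in KO2, and 7 and 15 in WT, and fell in KO1 (log2 fold change -2.31 ± 0.77, edgeR adjusted p = 0.0261). SLC25A34-AS1 rose in KO2 (1.97 ± 0.67, edgeR adjusted p = 0.024). PLEKHM2, AL450998.2, AL450998.1 and SPEN were not called in either line.

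**Figure D4:**
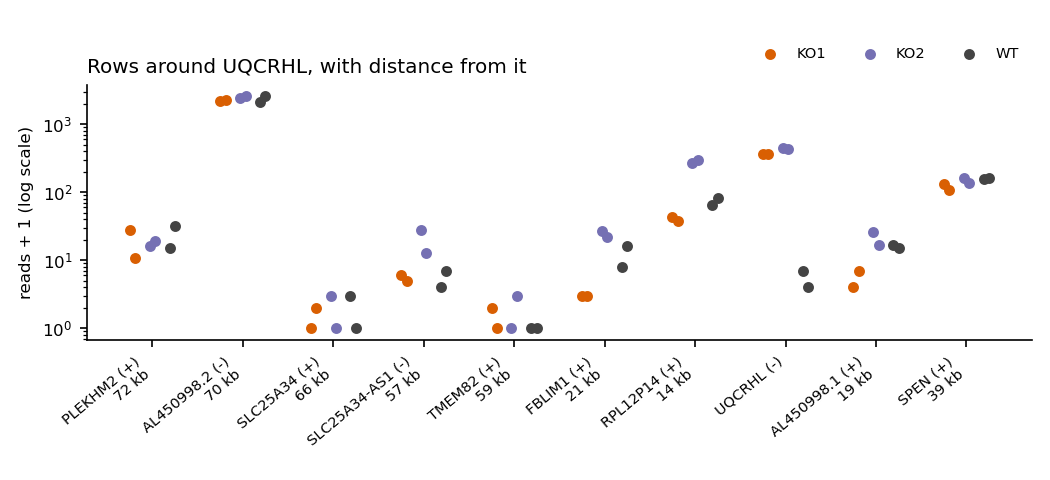
Reads plus 1 (log scale) in each library for the rows whose genes lie within 100000 bases of UQCRHL, in order of position, with strand and distance in kb. UQCRHL has 361 to 448 reads in the knockout libraries and 3 and 6 in WT, a split not seen in the other rows.

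In complex IV, 11 of 12 rows were tested and 1 was called (9.09% in each line, against 23.6% of all rows in KO1 and 29% in KO2). COX4I1, a regulatory subunit, was the most abundant, with 1370 and 1353 reads in KO1, 1431 and 1408 in KO2, and 1316 and 1497 in WT, and was not called (log2 fold change 0.04 ± 0.07 in KO1 and -0.12 ± 0.07 in KO2). COX5A, a matrix-side subunit, had 42 and 44 reads in KO1, 57 and 55 in KO2, and 15 and 32 in WT. It rose by 0.95 ± 0.33 in KO1 (edgeR adjusted p = 0.0305) and by 1.12 ± 0.32 in KO2 (edgeR adjusted p = 0.00644) on the log2 scale. Both calls were lost with DESeq2 (adjusted p = 0.137 and 0.0523), without WT library 1 (0.55 and 0.72) and with the bin medians of 0.36 and 0.32 taken out (0.59 and 0.80). The KO1 call was also lost without KO1 library 2 (0.88).

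Complex V had 15 of 16 rows tested, and 4 were called in KO1 (26.7%, against 23.6% of all rows) and 5 in KO2 (33.3%, against 29%). ATP5PB, the b subunit of the peripheral stalk, had 3216 and 3451 reads in KO1, 3087 and 3293 in KO2, and 3373 and 3264 in WT. It was lower in KO2 by a log2 change of -0.19 ± 0.07 (edgeR adjusted p = 0.0264), a call lost with upper-quartile scaling (-0.16) and without KO2 library 1 (-0.18), KO2 library 2 (-0.20) or WT library 1 (-0.12). KO1 was above KO2 by 0.28 ± 0.07 (edgeR adjusted p = 0.0019), a call kept in all 13 alternatives with values of 0.18 (without KO1 replicate 2) to 0.37. WDR77, over 350 of its exonic bases on the other strand, had 39 and 39 reads in KO1, 49 and 44 in KO2, and 22 and 17 in WT, and rose in both lines (1.07 ± 0.34, edgeR adjusted p = 0.0181, and 1.11 ± 0.33, edgeR adjusted p = 0.00983).

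ATP5IF1, the inhibitor that blocks ATP hydrolysis by the synthase, had 107 and 99 reads in KO1, 129 and 134 in KO2, and 179 and 210 in WT. Every knockout library was below WT. It fell by 0.84 ± 0.17 in KO1 (edgeR adjusted p = 0.000234) and by 0.70 ± 0.16 in KO2 (edgeR adjusted p = 0.00109) on the log2 scale. The 33 well counted rows of its bin had medians of -0.64 in both lines, and with these taken out the ATP5IF1 row lost both calls (-0.19 in KO1, -0.06 in KO2).

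ATP5MF, the f subunit of the membrane part, and the read-through row ATP5MF-PTCD1 lie on chromosome 7, on the minus strand, and overlap each other. ATP5MF had 132 and 124 reads in KO1, 102 and 109 in KO2, and 170 and 203 in WT. It fell by 0.95 ± 0.17 in KO2 (edgeR adjusted p = 2.88e-05). In KO1 it was at -0.46 ± 0.17 (edgeR adjusted p = 0.04), a call lost in 8 of 13 alternatives, among them those without KO1 library 1 (-0.47), KO1 library 2 (-0.46), WT library 1 (-0.54) and WT library 2 (-0.39). The ATP5MF row was higher in KO1 than in KO2 by 0.49 ± 0.18 (edgeR adjusted p = 0.0436), a call kept in 4 of 13 alternatives. ATP5MF-PTCD1 had 1451 and 1425 reads in KO1, 1134 and 1143 in KO2, and 1701 and 1735 in WT. It fell in KO2 by 0.73 ± 0.07 (edgeR adjusted p = 1.61e-10), was at -0.18 ± 0.07 in KO1 (edgeR adjusted p = 0.0604), and was higher in KO1 than in KO2 by 0.55 ± 0.07 (edgeR adjusted p = 1.35e-07). The bin median was 0.04 in KO1 and -0.56 in KO2 over 25 rows. With it taken out, neither row was called in KO2 (-0.39 for ATP5MF and -0.17 for ATP5MF-PTCD1), and the read-through row was called lower in KO1 (-0.22).

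ATP5MC3, one of the genes for the c ring, had 145 and 108 reads in KO1, 156 and 151 in KO2, and 72 and 109 in WT. It was at 0.56 ± 0.20 in KO1 (edgeR adjusted p = 0.0331) and 0.63 ± 0.19 in KO2 (edgeR adjusted p = 0.0112). Both calls were lost with DESeq2 and without WT library 1 (0.34 and 0.41), the KO1 call without KO1 library 1 (0.38) and the KO2 call without KO2 library 1 (0.58). ATP5F1B, the catalytic beta subunit, had 99 and 91 reads in KO1, 81 and 82 in KO2, and 56 and 66 in WT, with all knockout libraries above WT. It rose in KO1 by 0.72 ± 0.22 (edgeR adjusted p = 0.0128) and was at 0.28 ± 0.22 in KO2 (edgeR adjusted p = 0.374). The KO1 call was lost with DESeq2, without KO1 library 1 (0.70) and without WT library 1 (0.65).

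ATP5ME, the e subunit, which takes part in dimers of the synthase, had 64 and 46 reads in KO1, 100 and 122 in KO2, and 73 and 58 in WT. KO2 lay above the other groups, by 0.62 ± 0.22 against WT (edgeR adjusted p = 0.0335), and KO1 was below KO2 by a log2 difference of -0.80 ± 0.23 (edgeR adjusted p = 0.00991). The first call was lost without KO2 library 2 (0.52) or WT library 2 (0.42), and the second without KO1 library 2 (-0.62) or KO2 library 2 (-0.69). Both were lost with DESeq2 and with the bin median of 0.42 in KO2 taken out (0.20 and -0.37). MYL5, over 579 of its exonic bases on the other strand, rose by 0.25 ± 0.07 in KO1 (edgeR adjusted p = 0.00913) and by 0.26 ± 0.07 in KO2 (edgeR adjusted p = 0.00535).

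The antisense row NDUFB2-AS1 had 3813 and 4145 reads in KO1, 3349 and 3706 in KO2, and 3772 and 3813 in WT. It shares 321 exonic bases with NDUFB2 and 409 with ADCK2, both on the other strand. It was lower in KO2 than in WT by a log2 change of -0.24 ± 0.07 (edgeR adjusted p = 0.00465), and this was lost without KO2 library 1 (-0.20) or WT library 1 (-0.20). With the bin median of -0.30 taken out it was at 0.05. KO1 was above KO2 by 0.39 ± 0.07 (edgeR adjusted p = 1.86e-05), a call kept in all 13 alternatives with values of 0.26 (bin median taken out) to 0.49.

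**Figure D5:**
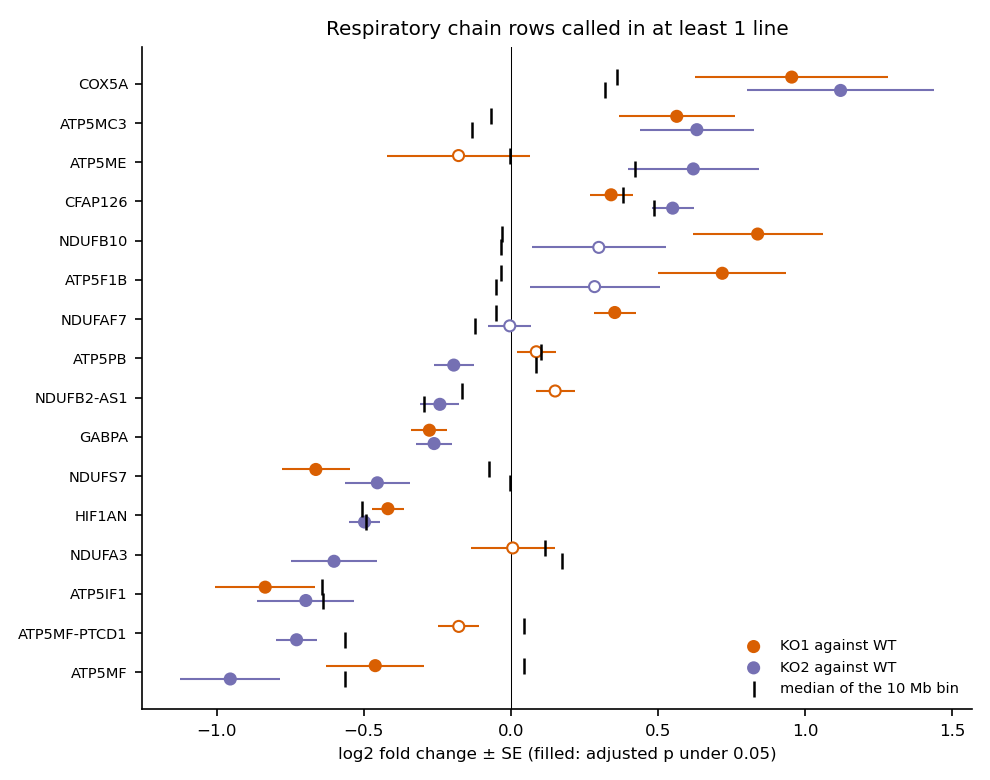
Log2 fold change with its SE for the rows called in at least 1 line, KO1 above KO2 within each row, filled where the adjusted p was under 0.05; UQCRHL is left out because of its scale, and 1 called row is not shown. Black ticks are the median of the 10 Mb bin, which lies close to HIF1AN, CFAP126 and ATP5IF1 in both lines and away from NDUFS7 and ATP5MC3; GABPA has no bin value.

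Of the 13 rows called in KO1, 12 lay in a bin with a median, and 7 of them were still called with the same sign when it was taken out. In KO2, 13 of the 14 had a bin median and 5 were still called. UQCRHL, NDUFS7 and ATP5MC3 were among those kept in both lines. Leaving out each library in turn kept 7 of the calls in KO1 and 7 in KO2 throughout. UQCRHL, HIF1AN, GABPA, CFAP126 and ATP5IF1 were among these in both lines.

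Over all respiratory chain genes, 24 rows on the other strand were assigned, and 21 were tested. In KO1, 3 rose and 2 fell (23.8%, against 23.6% of all rows), and in KO2, 6 rose and 5 fell (52.4%, against 29% of all rows). The 21 include HIF1AN, GABPA and CFAP126, which were added by name and called in both lines. The remaining KO1 calls were those of MYL5 and WDR77. Most of the 21 had a mean of 100 or more reads. Of all rows at that depth, 44.2% were called in KO1 and 53.3% in KO2. KCTD2, over ATP5PD of the peripheral stalk, had 4117 and 4095 reads in KO1, 3191 and 3374 in KO2, and 4159 and 4330 in WT. It fell in KO2 by 0.51 ± 0.06 (edgeR adjusted p = 2.04e-08), where its bin median was -0.55, and was at 0.03 ± 0.06 in KO1 (edgeR adjusted p = 0.761). GDF9, over UQCRQ, and AP003465.1, over UQCRB, were not called in either line. LINC00649, over ATP5PO and exons of other genes, had 9208 and 9772 reads in KO1, 7747 and 8975 in KO2, and 7384 and 7757 in WT. It rose in KO1 by 0.41 ± 0.06 (edgeR adjusted p = 1.17e-06) and was at 0.0065 ± 0.06 in KO2 (edgeR adjusted p = 0.954).

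A list of 53 other genes of the pathway covered electron carriers, assembly factors and regulators, and 37 of their rows were tested. In KO1, 3 rose and 4 fell (18.9%, against 23.6% of all rows). In KO2, 4 rose and 5 fell (24.3%, against 29%), and 3 rose and 3 fell in both lines (16.2%, against 13.5%). UQCC2 and UQCC3 are assembly factors of complex III that act on cytochrome b. UQCC2 had 603 and 546 reads in KO1, 643 and 707 in KO2, and 1061 and 1100 in WT, and fell by 0.83 ± 0.08 (edgeR adjusted p = 1.84e-10) and 0.81 ± 0.08 (edgeR adjusted p = 1.61e-10). UQCC3 had 656 and 545 reads in KO1, 1079 and 1184 in KO2, and 1082 and 1244 in WT, and fell in KO1 by 0.87 ± 0.08 (edgeR adjusted p = 6.45e-11). KO1 was below KO2 there (log2 difference -0.70 ± 0.08, edgeR adjusted p = 1.24e-08). TTC19, another complex III factor, fell in KO2 by 0.72 ± 0.15 (edgeR adjusted p = 0.00025). On the other strand, ITPR3 and MIR3934 lie over exons of UQCC2. LBHD1 lies over 701 exonic bases of UQCC3, and ZSWIM7 over 215 of TTC19. The ITPR3 row rose by 0.31 ± 0.08 in KO1 (edgeR adjusted p = 0.00458) and by 0.83 ± 0.08 in KO2 (edgeR adjusted p = 1.99e-10). The MIR3934, LBHD1 and ZSWIM7 rows were not called in either line. Whether the reads of rows in this list came from the named genes was not tested. UQCC1 had 10 and 7 reads in KO1, 6 and 12 in KO2, and 1 and 1 in WT, and its calls (edgeR adjusted p = 0.0249 and 0.0269) were lost without any 1 of the 6 libraries, with log2 values of 2.79 to 3.21 in KO1 and 2.36 to 3.27 in KO2.

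Among complex IV factors, COX15, which makes haem A, fell by 0.70 ± 0.13 in KO1 (edgeR adjusted p = 6.28e-05) and 0.62 ± 0.13 in KO2 (edgeR adjusted p = 0.000169). COX11, which delivers copper, fell by 0.44 ± 0.07 (edgeR adjusted p = 9.5e-06) and 0.33 ± 0.07 (edgeR adjusted p = 0.000426). Both lost their calls with the bin medians taken out, at -0.32 and -0.31 for COX15 and -0.06 and 0.13 for COX11. COX20, a chaperone of the second mitochondrial-encoded subunit, rose by 0.87 ± 0.07 (edgeR adjusted p = 3.21e-13) and 1.12 ± 0.07 (edgeR adjusted p = 2.91e-16). COA3, which acts early in assembly, rose in KO2 by 0.59 ± 0.15 (edgeR adjusted p = 0.00176). Genes on the other strand share 3502 exonic bases with COX20 (HNRNPU), 909 with COX11 (TOM1L1) and 816 with COA3 (WNK4). The HNRNPU row was not called in KO1 and fell by 0.57 ± 0.07 in KO2 (edgeR adjusted p = 2.23e-08). The TOM1L1 row fell by 0.38 ± 0.08 in KO1 (edgeR adjusted p = 0.000191) and by 0.36 ± 0.08 in KO2 (edgeR adjusted p = 0.000257). The WNK4 row was not called in either line. The 5 tested rows of the other complex I factors had log2 fold changes of -0.30 to 0.43 in KO1 and -0.96 to 0.54 in KO2.

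Of the 12 regulators, 9 were tested. YY1, whose letters are marked in the NDUFS7 and ATP5PF windows above, had 535 and 512 reads in KO1, 746 and 767 in KO2, and 397 and 421 in WT. Its row rose by 0.44 ± 0.09 in KO1 (edgeR adjusted p = 0.000296) and 0.75 ± 0.09 in KO2 (edgeR adjusted p = 1.11e-08). AL157871.6 lies over 107 exonic bases of YY1 on the other strand. The AL157871.6 row fell by 0.40 ± 0.08 in KO1 (edgeR adjusted p = 0.000287) and rose by 0.34 ± 0.08 in KO2 (edgeR adjusted p = 0.000885). POLRMT, the mitochondrial RNA polymerase, fell in KO2 by 0.31 ± 0.11 (edgeR adjusted p = 0.0301), a call lost with DESeq2, with upper-quartile scaling (-0.28) and without either KO2 library (-0.29 and -0.32) or either WT library (-0.31 and -0.31). GABPB1, the partner subunit of GABPA, and ESRRA were not called in either line.

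The authors' deposited table compares the 4 knockout libraries with WT and lists 52 of the 82 rows. In the authors' deposited table, 5 had a q-value under 0.05, 2 higher and 3 lower in the knockout. Its log2 fold changes for these were 6.42 for UQCRHL (q = 0.00020), 0.49 for CFAP126 (q = 0.029), -0.42 for HIF1AN (q = 0.0073), -0.72 for ATP5IF1 (q = 0.017) and -0.51 for NDUFS7 (q = 0.045) in the authors' deposited table. GABPA had -0.23 (q = 0.096) in the authors' deposited table.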

How the data were processed

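Strand-specific libraries (NEBNext Ultra II Directional, first-strand type) were built from total RNA isolated with TRNzol, per the labels' protocols. The submitters' processing notes name the builds hg38 and GRCh38.p6 and the tools limma, HTSeq 0.6.1p1, STAR 2.7.1a and Trim Galore. Neither the annotation nor the strand setting is given in the sources used here. Values analysed were raw read counts per symbol, as the authors deposited them, without normalization. FPKM values were not used here. The authors' deposited table also holds log2 fold changes and q-values, which were only compared.

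Counts were tested with edgeR 4.0.16 (R 4.3.3, quasi-likelihood F test, TMM, filterByExpr) on all 14184 rows that passed, in 1 fit of 3 groups with 3 residual and 31.9 prior degrees of freedom and a biological coefficient of variation of 7.57%. Rows with a Benjamini-Hochberg adjusted p under 0.05 over all tested rows were called. The script was tested on simulated data. Rows were placed by symbol with GENCODE v29 (GRCh38), 56162 directly and 324 through a current symbol. Alternatives were RLE and upper-quartile factors, no filter on low counts, DESeq2 1.42.0, fits of the compared groups only, the replicate number as a block, leaving out each library, and an offset by 10 Mb bin taken from bins with 15 or more rows whose mean count reached 50. Replicates differed by more than counting noise (chi-square per degree of freedom 3.92 in KO1, 2.28 in KO2 and 2.41 in WT).

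Members and lists were chosen with earlier results of these data known. Named rows were the 3 added rows and the genes under them, every member called in any comparison (1 of them is not reported here), the 2 most abundant members of each complex, those next to the limit of 30 reads, and called rows of the list of other pathway genes. Rows on the other strand and rows around UQCRHL were named after their values were seen.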

Additional observations from a re-analysis of the deposited data

Results flagged for a closer look

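The changes of 10 respiratory chain rows differed between the knockout lines, by the direct edgeR test of KO1 against KO2 (adjusted p under 0.05 in each). These were 13% of the tested members, against 20.4% of all rows. In log2 units the difference was positive, with the higher row in KO1, for NDUFAF7 (0.36), NDUFB11 (0.25), NDUFA3 (0.61), ATP5PB (0.28), ATP5MF (0.49), NDUFB2-AS1 (0.39) and ATP5MF-PTCD1 (0.55). It was negative, with the higher row in KO2, for NDUFA1 (-0.97), ATP5ME (-0.80) and CFAP126 (-0.21). NDUFAF7, ATP5PB and NDUFB2-AS1 kept this call under the bin offset and without each library. The calls of ATP5MF and CFAP126 were each kept in 4 of 13 alternatives.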

How the results depend on the processing

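Counts of called members moved by more than 1.5 times under some alternatives. DESeq2 called 8 in KO1 against WT (13 with edgeR) and 6 in KO1 against KO2 (10 with edgeR). The 10 Mb bin offset called 7 in KO2 against WT (14 without it), 6 in KO1 against KO2 (10) and 4 in both lines (9). Leaving out 1 library gave 8 to 13 called rows in KO1 against WT, 11 to 17 in KO2 against WT, 5 to 12 in KO1 against KO2 and 6 to 9 in both lines; the fewest in KO1 against WT came without WT library 1, and between the lines without KO1 library 2 (5) and KO2 library 1 (6). A group left with 1 library was assumed to vary like the others. The bin offset reversed the sign of 6 values: HIF1AN in KO1 (0.0869), CFAP126 in KO1 (-0.042), NDUFB2-AS1 in KO2 (0.054), COX11 in KO2 (0.13), and KO1 against KO2 for ATP5MF (-0.11) and ATP5MF-PTCD1 (-0.0548). The cause was not tested. GABPA, ATP5PF, NDUFA1 and COX20 had no bin median. Upper-quartile factors turned the split of all called rows in KO1 from 1469 higher and 1881 lower to 1941 higher and 1549 lower, and in KO2 from 1934 and 2184 to 2088 and 2022. Replicate numbers did not pair libraries (correlations of replicate differences -0.03 between KO1 and WT, -0.02 between KO2 and WT and -0.10 between KO1 and KO2, over 6425 rows), and with the replicate number as a block 12, 14 and 9 rows were called in the 3 comparisons and 8 in both lines.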
